A study of Homo sapiens with 6 samples.

Results

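The 76 genes described here are the nuclear-encoded subunits of the mitochondrial respiratory chain and the ATP synthase, in C4-2B prostate cancer cells that were sensitive or resistant to enzalutamide. They were taken by gene symbol from the 58024 genes of the RNA-Seq table, as all NDUFA, NDUFB, NDUFC, NDUFS and NDUFV genes with a number, the 4 SDH genes, 8 UQCR genes, 10 COX genes and the ATP5 genes, so that no expression value entered the choice. They comprise 36 genes of complex I, 4 of complex II, 8 of complex III, 11 of complex IV and 15 of complex V. NDUFA4, which is named for complex I and has since been assigned to complex IV, was counted with complex IV. Another 2 genes share the symbol pattern without being structural subunits, namely ATP5S, coupling factor B, and ATP5L2, a copy of the gene for the g subunit.

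C4-2B is an established castration-resistant line derived from LNCaP cells, and enzalutamide is an antiandrogen drug. The 3 parental libraries came from cells passaged in the vehicle, dimethyl sulfoxide, which the labels give as 1% while the study's methods give a lower amount. The 3 resistant libraries came from cells exposed for at least 6 months to enzalutamide rising from 1 to 20 µM, pooled from the survivors and then kept in 5 µM enzalutamide. The extraction protocol names an exposure to 10 µM enzalutamide without saying plainly whether it included the parental cells. Resistance and the presence of the drug therefore cannot be told apart. All libraries came from stranded total RNA and were read as single ends of 50 bp. Nothing in the labels says that the libraries of a group were separate cultures, so the p values measure the spread between these libraries, which may be technical.

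The respiratory chain passes electrons from NADH through complex I, or from succinate through complex II, to ubiquinone, complex III, cytochrome c and complex IV, where oxygen is reduced. Complexes I, III and IV pump protons across the inner mitochondrial membrane, and the ATP synthase, complex V, uses the returning protons to make ATP. A few core subunits of complexes I, III, IV and V are encoded by mitochondrial DNA and all others by nuclear genes, whose products are imported and assembled with them. Prostate epithelium is known for exporting citrate, which limits its oxidation in the citric acid cycle, and prostate cancer cells are known for oxidising more of it.

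Values are FPKM, that is, fragment numbers divided by transcript length and by the library's mapped fragments, as the authors' software estimated them. The 6 libraries summed to between 792975 and 870110 FPKM and held 21956 to 27153 genes above 0. The table holds no read counts, so the depth behind each value is unknown. The noncoding RNA genes RMRP and RPPH1 made up 18.4% to 24.1% of each library's total. Of 10 prostate epithelial marker genes, 7 were lower and 2 higher in the resistant libraries, with KLK3, the gene of prostate-specific antigen, at 2489, 2321 and 2857 FPKM in parental against 46.8, 43.5 and 41.8 FPKM in resistant cells. Of 11 stromal and immune markers, 7 were high enough to be tested and 4 of these were higher in the resistant libraries, where all 11 summed to 11.1 to 18.3 FPKM against 8.49 to 10.8 FPKM in the parental libraries. By the same test, which is given below, 22.1% of all 24468 genes tested were called higher and 22.3% lower. Among the 8936 genes with a mean of 10 FPKM or more, 25.2% were called higher and 31.6% lower. CD3E, a T cell marker, was listed at 0 in every library, and PTPRC, a leukocyte marker, was listed at 0 in all but resistant replicate 0, with 0.0531 FPKM. DCN, a fibroblast marker, was at 0 in all parental libraries and reached 3.63, 3.78 and 4.35 FPKM in the resistant ones. COL1A1, another fibroblast marker and the most abundant of the 11, stood at 6.39, 4.98 and 8.74 FPKM in parental against 2.86, 3.47 and 6.83 FPKM in resistant cells and was not called (log2 fold change -0.66). The part of these markers in the results that follow was not tested.

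The respiratory chain genes moved in both directions: 23 of the 76 were upregulated in C4-2B enzalutamide resistant cells, 22 were downregulated and 31 did not pass the test. All 76 were expressed highly enough to be tested by limma, which was run on the log2(FPKM + 0.1) scale with a threshold of 0.05 for the Benjamini-Hochberg adjusted p. The called share of 59.2% has to be read against the whole table, in which 44.4% of the 24468 genes tested were called, 22.1% as higher and 22.3% as lower. Since all members but ATP5L2 had a mean of at least 10 FPKM, the 8936 genes at that level are the closer background, and of these 56.7% were called, 25.2% as higher and 31.6% as lower. The share of called respiratory chain genes was near that of other genes at such levels. The values of the groups did not overlap for 50 of the 76 genes, 25 with all resistant values above and 25 with all below the parental values. In the whole table the groups did not overlap for 54.8% of genes, 26.6% with resistant values above and 28.1% below. Among genes at 10 FPKM or more they did not overlap for 66.3%, with 29.4% above and 36.9% below.

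The median log2 fold change of the 76 genes was -0.04, beside -0.05 over all genes tested and -0.09 over genes at 10 FPKM or more. Their log2 fold changes ran from -1.62 to 1.70 with an SD of 0.633, whereas the SD was 1.81 over all genes tested and 1.57 over genes at 10 FPKM or more. Of the 76 members, 6 rose and 2 fell by 2-fold or more, and 44 lay within 0.5 log2 units of no change. Among the 8936 genes at 10 FPKM or more, 833 were called with a rise and 1054 with a fall of that size. There 4443 lay within 0.5 log2 units. Over all 24468 genes tested these counts were 3659, 3320 and 8303. The quartiles of the log2 fold change were -0.35 and 0.44 for members and -0.59 and 0.41 for genes at 10 FPKM or more. When each library was instead scaled by its median ratio to the other libraries, 25 members were higher and 15 lower, which moved the higher share of the calls from 51.1% to 62.5% and the median log2 fold change to 0.06. The calls for 35 of the 45 genes held under all 15 alternative settings, 21 of them higher and 14 lower.

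**Figure D1:**
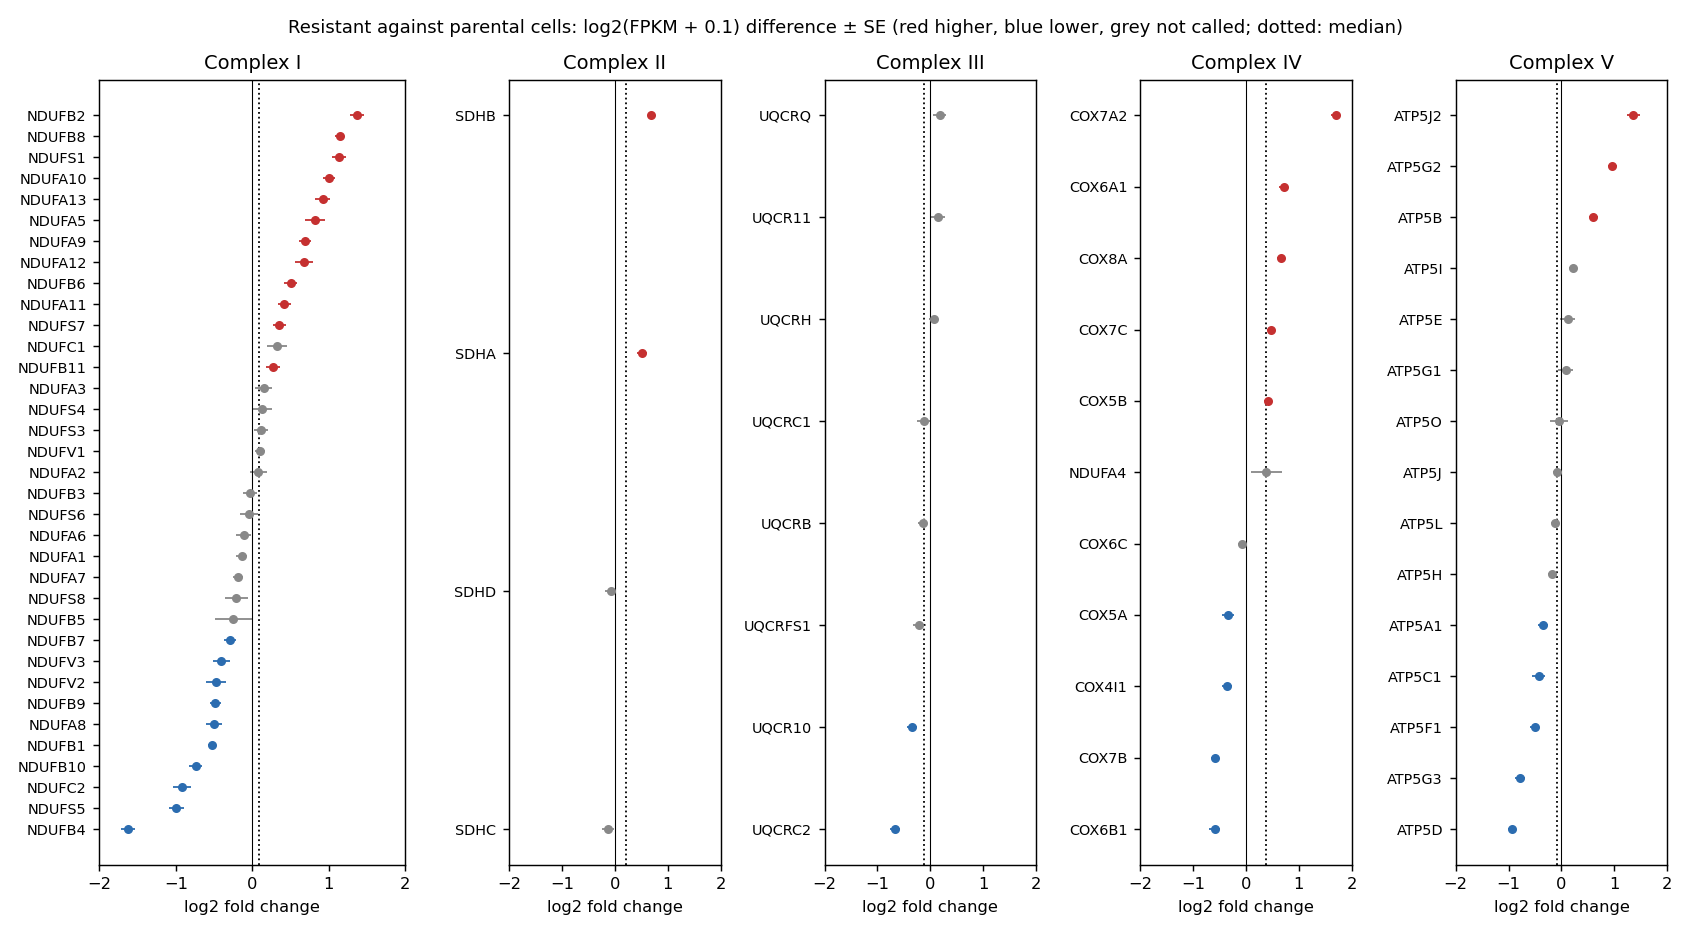
Log2 fold change on the log2(FPKM + 0.1) scale, resistant against parental libraries, for structural subunit genes, grouped by complex. Points are the limma estimates with 1 SE, colours give the call, solid vertical lines mark no change and dotted lines the median of the complex. Complexes I, IV and V hold upregulated and downregulated genes. Complex II, with 4 genes, has no downregulated gene and complex III, with 8 genes taken by symbol, no upregulated gene. CYC1 of complex III, which was upregulated, lies outside the symbol choice and is not shown. Among genes at 10 FPKM or more 25.2% were called higher and 31.6% lower.

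Promoters were matched in RefSeq for 61 of the 76 genes, as the 250 bases before and 50 bases after the first listed transcription start. Nuclear genes for respiratory chain subunits are known for promoter sites of NRF1, GABP and YY1, and the motifs of these factors were searched on both strands. The GABP core, CCGGAAG or CTTCCGG on the other strand, stood in 19 of the 61 promoters (31.1%) and in 10.7% of all 27305 promoters. The 10-letter NRF1 core stood in 4 (6.56%) against 1.36% of all, and the 10-letter YY1 core in 7 (11.5%) against 1.28% of all. Of these members 8 have several listed starts, and when a match at any listed start was counted, 20 of 61 promoters held the GABP core, 4 the NRF1 core and 8 the YY1 core. The GABP core was found before genes that moved either way. It stood in 6 of 20 upregulated, 3 of 16 downregulated and 10 of 25 other promoters, the NRF1 core in 0, 3 and 1, and the YY1 core in 3, 0 and 4 of the same groups. A match is a description of the letters and does not show that a factor binds there.

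The 180 bases that precede the start are shown for 3 upregulated genes, 3 downregulated genes and 1 gene that was not called, picked because each carries a match, so that the same core can be seen before genes that moved in opposite directions. They are written 5′ to 3′ on the strand of the gene in GRCh38.p14, with the matched cores in capitals, read on either strand. The upregulated genes are COX8A (chr11:63974440-63974619, plus strand) and COX6A1 (chr12:120437933-120438112, plus strand) of complex IV and SDHB (chr1:17054033-17054212, minus strand) of complex II, each with the GABP core. The downregulated genes are COX6B1 (chr19:35648143-35648322, plus strand) of complex IV, with the GABP core, and NDUFB4 (chr3:120596156-120596335, plus strand) of complex I and ATP5C1 (chr10:7787997-7788176, plus strand) of complex V, with the NRF1 core. ATP5J (chr21:25735055-25735234, minus strand) of complex V was not called and carries the YY1 core, nearer its 5′ end, and the GABP core.
COX8A: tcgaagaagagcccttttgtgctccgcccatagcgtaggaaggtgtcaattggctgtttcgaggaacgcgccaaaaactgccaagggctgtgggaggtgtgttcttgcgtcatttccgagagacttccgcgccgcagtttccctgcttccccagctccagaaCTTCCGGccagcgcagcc
COX6A1: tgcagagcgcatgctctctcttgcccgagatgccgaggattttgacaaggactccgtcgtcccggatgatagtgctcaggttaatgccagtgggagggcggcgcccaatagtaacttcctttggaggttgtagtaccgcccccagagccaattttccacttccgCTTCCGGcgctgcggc
SDHB: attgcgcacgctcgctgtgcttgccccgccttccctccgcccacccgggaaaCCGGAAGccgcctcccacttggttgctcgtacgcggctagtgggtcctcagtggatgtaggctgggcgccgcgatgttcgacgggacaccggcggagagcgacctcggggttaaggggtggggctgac
COX6B1: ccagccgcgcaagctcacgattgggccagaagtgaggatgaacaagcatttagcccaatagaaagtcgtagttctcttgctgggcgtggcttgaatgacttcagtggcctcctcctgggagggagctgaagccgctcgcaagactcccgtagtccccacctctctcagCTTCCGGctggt
NDUFB4: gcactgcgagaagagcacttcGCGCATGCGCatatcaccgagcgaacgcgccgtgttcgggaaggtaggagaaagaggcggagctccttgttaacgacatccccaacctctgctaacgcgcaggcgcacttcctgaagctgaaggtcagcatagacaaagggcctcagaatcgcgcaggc
ATP5C1: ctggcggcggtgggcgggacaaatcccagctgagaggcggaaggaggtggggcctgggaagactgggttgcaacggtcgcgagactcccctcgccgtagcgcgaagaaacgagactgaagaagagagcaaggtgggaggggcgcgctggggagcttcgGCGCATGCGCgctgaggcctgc
ATP5J: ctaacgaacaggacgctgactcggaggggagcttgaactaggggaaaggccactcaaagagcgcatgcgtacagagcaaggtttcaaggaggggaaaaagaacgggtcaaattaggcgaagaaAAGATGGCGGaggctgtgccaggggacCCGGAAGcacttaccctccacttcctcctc
In COX6A1 and COX6B1, both of complex IV, the GABP core begins 16 and 12 bases before the start, while the first gene was upregulated and the second downregulated.

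In complex I, 13 of 36 genes were upregulated, 10 were downregulated and 13 did not pass the test, with a median log2 fold change of 0.09. Complex I has a peripheral arm, which oxidises NADH and reduces ubiquinone, and a membrane arm, which pumps protons. Its nuclear core subunits carry the flavin and the iron-sulfur clusters or line the quinone site, and genes that rose and genes that fell were found among them. NDUFS1, the largest subunit of the NADH-oxidising module, was measured at 44.9, 44.8 and 45.5 FPKM in parental against 91.1, 114 and 94.2 FPKM in resistant cells. The parental values lay close together and far below every resistant value, a 2.21-fold difference (log2 fold change 1.14 ± 0.10 (SE), limma with Benjamini-Hochberg adjusted p = 0.000242).

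NDUFS7, which holds the last iron-sulfur cluster before ubiquinone, rose by a smaller step, from 92.1, 90.9 and 77.1 FPKM to 108, 114 and 109 FPKM (log2 fold change 0.35 ± 0.09 (SE), adjusted p = 0.0174). Its call was lost without the variance trend and without resistant replicate 1 or 2. NDUFV2, the partner of the flavin subunit NDUFV1, was downregulated, at 312, 308 and 238 FPKM in parental against 194, 189 and 233 FPKM in resistant cells (log2 fold change -0.47 ± 0.13 (SE), adjusted p = 0.0292). Parental replicate 2 came within a few FPKM of resistant replicate 2, and the NDUFV2 call was lost under 9 of the 15 alternatives. NDUFV1 itself, which binds NADH, was measured at 308, 279 and 298 FPKM in parental against 307, 318 and 322 FPKM in resistant cells with overlapping groups (log2 fold change 0.10 ± 0.06 (SE), adjusted p = 0.242). The genes NDUFS3 and NDUFS8 of the quinone-reducing module overlapped as well, with log2 fold changes of 0.11 and -0.21 and adjusted p values of 0.361 and 0.309. Within the core, NDUFS1 and NDUFS7 were thus called higher, NDUFV2 was called lower, and NDUFV1, NDUFS3 and NDUFS8 were not called.

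The 29 accessory subunits of complex I, which surround the core and stabilise it, split into 10 upregulated and 9 downregulated genes. Among the 11 NDUFB genes, which encode the distal part of the membrane arm, 4 were upregulated and 5 downregulated, and this group held both the largest rises and the largest fall of complex I. NDUFB2 (chromosome 7, 140690777 to 140722790, GRCh38) was measured at 180.2, 169.5 and 154 FPKM in parental against 438, 467 and 394 FPKM in resistant cells. All resistant values exceeded all parental values, by 2.58-fold in the means (log2 fold change 1.37 ± 0.09 (SE), adjusted p = 9.13e-05). NDUFB8 (chromosome 10, 100523740 to 100530000) stood at 106, 102 and 96.3 FPKM in parental against 221, 226 and 226 FPKM in resistant cells, with little spread in either group (log2 fold change 1.14 ± 0.06 (SE), adjusted p = 4.44e-05). NDUFB8 protein is widely used as a marker of assembled complex I, but protein was not measured in these libraries.

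NDUFB4 (chromosome 3, 120596328 to 120602507) fell the most of all 76 genes, with 1000.4, 911 and 867 FPKM in parental against 333, 293 and 278 FPKM in resistant cells. It had the highest mean of complex I in parental cells, but was below NDUFB2, NDUFA13, NDUFV1 and NDUFA3 in resistant cells. The lowest parental value was above every resistant value by a wide margin, and the means differed 3.08-fold (log2 fold change -1.62 ± 0.09 (SE), adjusted p = 5.17e-05). NDUFB10 stood at 324, 286 and 324 FPKM in parental against 175, 203 and 181 FPKM in resistant cells and NDUFB1 at 435, 427 and 426 FPKM in parental against 299, 302 and 289 FPKM in resistant cells, and neither overlapped between the groups. Their log2 fold changes were -0.74 ± 0.09 (SE) and -0.53 ± 0.05 (SE), with adjusted p values of 0.000866 and 0.000433. The other called NDUFB genes were NDUFB6 (0.50) and NDUFB11 (0.27), upregulated, and NDUFB9 (-0.49) and NDUFB7 (-0.29), downregulated, in log2 fold change. The calls for NDUFB11 and NDUFB7 were lost under 9 and 7 alternatives. NDUFB3 and NDUFB5 were not called, and NDUFB5 spread widely in the resistant libraries, with 112, 216 and 187 FPKM.

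Among the 9 accessory genes of the proximal membrane arm, 3 were upregulated and 3 downregulated. NDUFS5, a subunit on the intermembrane space side, stood at 477, 412 and 517 FPKM in parental against 218, 243 and 243 FPKM in resistant cells, and NDUFC2, a membrane subunit, at 249.6, 217 and 254 FPKM in parental against 143, 128 and 109 FPKM in resistant cells. Both were lower in every resistant library, with log2 fold changes of -0.99 ± 0.10 (SE) and -0.92 ± 0.12 (SE) and adjusted p values of 0.000458 and 0.00118. The third downregulated gene was NDUFA8, with a log2 fold change of -0.50. NDUFA10, a matrix-facing subunit related to nucleoside kinases, was measured at 47.3, 51.7 and 50.1 FPKM in parental against 94.8, 107 and 98.01 FPKM in resistant cells and was higher by 1.00 ± 0.08 (SE) on the log2 scale (adjusted p = 0.000147). NDUFA13, also known as GRIM-19, was measured at 234, 203 and 205 FPKM in parental against 384, 457 and 377 FPKM in resistant cells, without overlap (log2 fold change 0.92 ± 0.10 (SE), adjusted p = 0.000638), and NDUFA11 rose by 0.42. The genes of this arm that were not called, NDUFA1, NDUFA3 and NDUFC1, had log2 fold changes of -0.14, 0.15 and 0.33. NDUFC1 was higher and NDUFA1 lower in every resistant library without passing the test, with adjusted p values of 0.0884 and 0.148.

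Of the 9 accessory genes of the peripheral arm, 3 were upregulated, namely NDUFA5, NDUFA9 and NDUFA12, with log2 fold changes of 0.82, 0.69 and 0.68. NDUFA9, which binds a nucleotide near the quinone site, stood at 123, 121 and 119 FPKM in parental against 189, 213 and 184 FPKM in resistant cells. NDUFV3 was downregulated, with a log2 fold change of -0.40, and this call was lost under 5 alternatives. NDUFS4 and NDUFS6, mutated in inherited complex I deficiency, overlapped between the groups, with log2 fold changes of 0.12 and -0.04. Those of NDUFA2, NDUFA6 and NDUFA7, which were not called either, were 0.08, -0.11 and -0.19, and NDUFA7 just missed the threshold (adjusted p = 0.0512). The names beyond the 3 largest rises and falls of a complex were added after their values were seen, to complete each group.

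**Figure D2:**
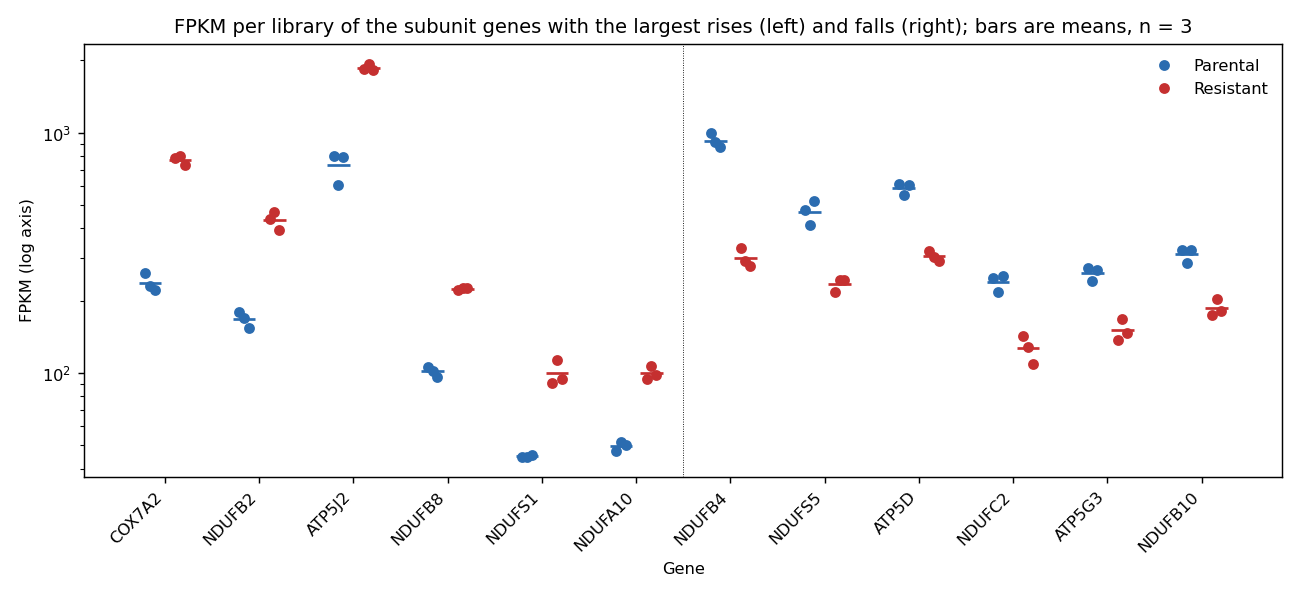
FPKM in each library, on a log axis, of the 6 members with the largest rise (left) and the 6 structural subunits with the largest fall (right), with horizontal bars for the means of 3 libraries. For all 12 genes the parental points (blue) and the resistant points (red) do not overlap.

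In complex II, succinate dehydrogenase, the catalytic subunits were upregulated and the membrane anchors were not called, with a median log2 fold change of 0.22 over the 4 genes. SDHA, the flavoprotein, was measured at 79.2, 67.8 and 67.7 FPKM in parental against 98.1, 108 and 99.98 FPKM in resistant cells, and SDHB, the iron-sulfur protein, at 112, 119 and 121 FPKM in parental against 189, 189 and 190.03 FPKM in resistant cells. Every resistant value was above every parental value for both genes, and the resistant SDHB values were nearly equal. The means differed 1.42-fold for SDHA (log2 fold change 0.51 ± 0.09 (SE), adjusted p = 0.00405) and 1.61-fold for SDHB (0.69 ± 0.06 (SE), adjusted p = 0.000249). SDHC and SDHD hold the catalytic part at the inner membrane and carry its heme. SDHC stood at 75.4, 61.9 and 77.7 FPKM in parental against 70.9, 59.6 and 65.9 FPKM in resistant cells, and SDHD at 29.3, 33.4 and 30.9 FPKM in parental against 26.4, 31.03 and 31.3 FPKM in resistant cells, with overlap in both. The 95% confidence intervals of the log2 fold change were -0.41 to 0.15 for SDHC and -0.33 to 0.17 for SDHD, so that a change of the size seen for SDHB lies outside both. Reads of SDHA can be shared with 3 pseudogenes, which were listed at 25.8% of the SDHA level in parental and 16.03% in resistant cells. The sum of SDHA and these pseudogenes was 90.04 ± 6.36 FPKM in parental cells and 118 ± 5.15 FPKM in resistant cells (SD, n = 3).

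In complex III, which passes electrons from ubiquinol to cytochrome c, none of the 8 genes taken by symbol was upregulated. Of these, 2 were downregulated and 6 did not pass the test, and the median log2 fold change was -0.13. CYC1, cytochrome c1 of this complex, was left out by the symbol choice and was upregulated, as given below. UQCRC2, a core protein, was measured at 282, 251 and 307 FPKM in parental against 167, 175 and 187 FPKM in resistant cells (log2 fold change -0.66 ± 0.09 (SE), adjusted p = 0.00167). It was lower in every resistant library, whereas UQCRC1, the other core protein, overlapped between the groups at 428, 315 and 433 FPKM in parental against 371, 367 and 339 FPKM in resistant cells. UQCR10, a small accessory subunit, stood at 185, 150.2 and 174 FPKM in parental against 126, 141 and 133 FPKM in resistant cells (log2 fold change -0.34 ± 0.09 (SE), adjusted p = 0.0259), and its call was lost under 8 alternatives. UQCRFS1, the Rieske protein that takes the electron from ubiquinol, had the lowest level of the complex, with 20.7, 18.3 and 17.9 FPKM in parental against 14.5, 18.2 and 16.6 FPKM in resistant cells. UQCRQ, a ubiquinone-binding accessory subunit, had the highest level, with 1323, 1024 and 1013 FPKM in parental against 1302, 1321 and 1153 FPKM in resistant cells. Neither passed the test, with adjusted p values of 0.211 and 0.29. UQCRB, UQCRH and UQCR11 had log2 fold changes of -0.15, 0.06 and 0.14 and overlapped.

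In complex IV, cytochrome c oxidase, 5 of 11 genes were upregulated and 4 downregulated, with a median log2 fold change of 0.39. The nuclear-encoded subunits of complex IV surround a catalytic core encoded by mitochondrial DNA and are known for regulating it. COX7A2 (chromosome 6, 75237675 to 75250323) had the largest rise of all 76 genes, with 262, 229.9 and 222 FPKM in parental against 782, 797 and 731 FPKM in resistant cells. The lowest resistant value was far above the highest parental value, and the means were 238 ± 21.1 FPKM in parental cells and 770.1 ± 34.7 FPKM in resistant cells (SD, n = 3), a 3.24-fold difference (log2 fold change 1.70 ± 0.08 (SE), adjusted p = 2.85e-05). COX6A1 was measured at 259, 233 and 244 FPKM in parental against 377, 442 and 389.7 FPKM in resistant cells and COX8A at 609, 522 and 549 FPKM in parental against 848, 913 and 880.5 FPKM in resistant cells, both without overlap. Their log2 fold changes were 0.72 ± 0.08 (SE) and 0.66 ± 0.08 (SE), with adjusted p values of 0.000795 and 0.000818. COX7C and COX5B, also upregulated, changed by 0.48 and 0.42 on the log2 scale.

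COX6B1, a subunit that links the monomers of the complex IV dimer, fell, with 1429.7, 1149 and 1446 FPKM in parental against 879, 852 and 928 FPKM in resistant cells. It had the highest mean of the complex in parental cells, whereas COX7C was above it in resistant cells. Its resistant values were all below the lowest parental value (log2 fold change -0.59 ± 0.10 (SE), adjusted p = 0.00454). COX7B stood at 285, 277 and 316 FPKM in parental against 192, 191 and 199.7 FPKM in resistant cells (log2 fold change -0.59 ± 0.07 (SE), adjusted p = 0.000861). COX4I1, the subunit through which ATP is known to inhibit the enzyme, was measured at 862, 773 and 950.3 FPKM in parental against 673, 717 and 629 FPKM in resistant cells, lower in every resistant library (log2 fold change -0.35 ± 0.10 (SE), adjusted p = 0.0239). COX5A was close to the threshold, with a log2 fold change of -0.33 and an adjusted p of 0.0478. The call for COX4I1 was lost under 7 alternatives and that for COX5A under 12. COX6C, with a log2 fold change of -0.07, and NDUFA4 were not called. NDUFA4 stood at 284, 136 and 271 FPKM in parental against 244, 331 and 291 FPKM in resistant cells, so that parental replicate 1 lay far below the other libraries, and its log2 fold change was 0.39 ± 0.29 (SE). Without parental replicate 1 the median log2 fold change of complex IV was 0.05 instead of 0.39, since NDUFA4 is the middle gene of the 11.

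In complex V, the ATP synthase, 3 of 15 genes were upregulated, 5 were downregulated and 7 did not pass the test, with a median log2 fold change of -0.09. The F1 head turns ADP into ATP, with ATP5A1 and ATP5B forming its hexamer of alpha and beta subunits and ATP5C1, ATP5D and ATP5E forming the central stalk. ATP5B, the catalytic beta subunit, was measured at 1122, 965 and 1033 FPKM in parental against 1466, 1701 and 1569 FPKM in resistant cells. Its mean over all 6 libraries was the highest of the 76 genes, although COX6B1 and UQCRQ were higher in parental and ATP5J2 in resistant cells. It was higher in every resistant library, by 1.52-fold in the means (log2 fold change 0.60 ± 0.09 (SE), adjusted p = 0.00199). ATP5A1, the alpha subunit that alternates with beta in the hexamer, was measured at 551, 516 and 587 FPKM in parental against 413, 489 and 406 FPKM in resistant cells and was lower in every resistant library (log2 fold change -0.34 ± 0.09 (SE), adjusted p = 0.0265). ATP5D, the delta subunit, fell further, with 609, 548 and 604 FPKM in parental against 320.3, 305 and 292 FPKM in resistant cells (log2 fold change -0.94 ± 0.07 (SE), adjusted p = 0.000143). The gamma subunit gene ATP5C1 stood at 349, 435 and 336 FPKM in parental against 303, 267 and 256 FPKM in resistant cells (log2 fold change -0.43 ± 0.12 (SE), adjusted p = 0.0267). ATP5E, the epsilon subunit, overlapped, with a log2 fold change of 0.11. The calls for ATP5A1 and ATP5C1 were each lost under 7 alternatives.

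Among the membrane subunits, ATP5J2 (chromosome 7, 99448475 to 99466186), the f subunit, was measured at 798, 605 and 794 FPKM in parental against 1833, 1934 and 1822 FPKM in resistant cells. All resistant values were above all parental values, 2.54-fold in the means (log2 fold change 1.36 ± 0.12 (SE), adjusted p = 0.000259). ATP5I, the e subunit, was higher in every resistant library, at 908, 854 and 972 FPKM in parental against 1049.6, 1109 and 1012 FPKM in resistant cells, without passing the test (log2 fold change 0.22 ± 0.07 (SE), adjusted p = 0.0538). ATP5L, the g subunit, overlapped, with a log2 fold change of -0.12. In the peripheral stalk, which holds the head in place, ATP5F1 was downregulated, at 317, 271 and 318 FPKM in parental against 196, 220.3 and 219.7 FPKM in resistant cells (log2 fold change -0.51 ± 0.09 (SE), adjusted p = 0.00474). The other stalk genes ATP5H, ATP5J and ATP5O had log2 fold changes of -0.18, -0.09 and -0.04, none of which passed.

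The c ring, which turns as protons pass, is built from a single mature protein that is encoded by 3 genes, ATP5G1, ATP5G2 and ATP5G3. ATP5G2 was measured at 289, 242 and 276 FPKM in parental against 497, 553 and 515 FPKM in resistant cells (log2 fold change 0.96 ± 0.09 (SE), adjusted p = 0.000289), and ATP5G3 at 274, 240.5 and 267 FPKM in parental against 138, 169 and 146 FPKM in resistant cells (-0.79 ± 0.10 (SE), adjusted p = 0.000989). The first was higher and the second lower in every resistant library, and ATP5G1 overlapped at 344, 256 and 346 FPKM in parental against 331, 368 and 297 FPKM in resistant cells (log2 fold change 0.08 ± 0.14 (SE), adjusted p = 0.671). The summed level of the 3 genes was 907, 738 and 889 FPKM in the parental and 966, 1089 and 959 FPKM in the resistant libraries, a mean of 845 ± 92.7 FPKM in parental cells and 1005 ± 73.5 FPKM in resistant cells (SD, n = 3). ATP5G2 made up 31.9% ± 0.886 of this sum in parental and 52.0% ± 1.53 in resistant cells (SD, n = 3), while ATP5G3 went from 30.9% ± 1.43 to 15.0% ± 0.639. ATP5G1 made up 37.2% ± 2.26 and 33.0% ± 1.73. With 3 libraries against 3, an exact permutation test of such a single value cannot give a p below 0.1, so no test is given for the shares and sums.

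**Figure D3:**
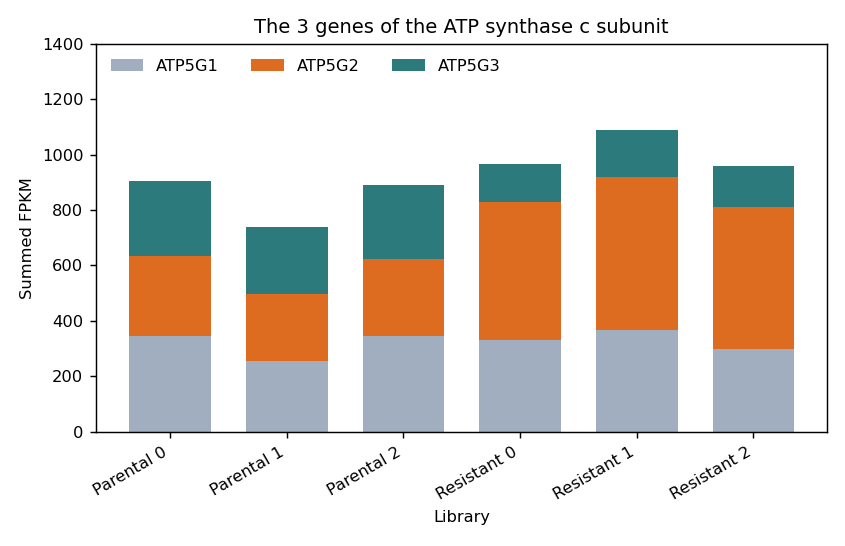
Stacked FPKM of ATP5G1, ATP5G2 and ATP5G3, the 3 genes of the c subunit of the ATP synthase, in each library. The ATP5G2 part of the bar is larger in the 3 resistant libraries, at 497 to 553 FPKM against 242 to 289 FPKM, and the ATP5G3 part smaller, at 138 to 169 FPKM against 240.5 to 274 FPKM.

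The 2 genes that share only the symbol pattern were low. ATP5S was measured at 24.8, 25.6 and 26.5 FPKM in parental against 11.2, 10.6 and 12.4 FPKM in resistant cells and was downregulated (log2 fold change -1.16 ± 0.10 (SE), adjusted p = 0.000226), below every parental value in each resistant library. ATP5L2 lay between 0.109 and 0.763 FPKM over the 6 libraries and did not pass the test. Without them, 23 of the 74 structural subunits were upregulated and 21 downregulated.

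As a share of all FPKM, the 76 genes made up 2.49% to 2.64% of the parental and 2.67% to 2.88% of the resistant libraries. Without RMRP and RPPH1 in the totals these shares were 3.12% to 3.36% and 3.52% to 3.75%. The summed level of complex II was 296, 282 and 298 FPKM in the parental and 384, 388 and 387 FPKM in the resistant ones, which did not overlap. That of complex V was 6875, 6300.01 and 6750.2 FPKM in parental against 7752, 8478 and 7634 FPKM in resistant cells, again without overlap, and ATP5J2 and ATP5B were the highest genes of that sum in resistant cells. The sums of complex IV were 5602, 4862 and 5457 FPKM in parental against 5748, 6133 and 5893 FPKM in resistant cells, and the lowest resistant sum was only a little above the highest parental one. The sums of complexes I and III overlapped, with 7061, 6429.8 and 6543 FPKM in parental against 6116, 6739.7 and 6272 FPKM in resistant cells for complex I and 3028, 2431 and 2613 FPKM against 2709.7, 2808 and 2508 FPKM for complex III. Averaged over its genes on the log2 scale, complex II was 0.25 higher in resistant cells and complex IV 0.22 higher, complex I was 0.09 higher, complex V differed by -0.01 and complex III by -0.14. The library values of complexes I, III and V overlapped on that scale, and for complex I the mean of the summed FPKM was lower in resistant cells, at 6376 against 6678.

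The 13 subunits encoded by mitochondrial DNA, which assemble with the nuclear ones, had 8 downregulated genes, 5 that did not pass and 0 upregulated genes, with a median log2 fold change of -0.66. Among the 8, MT-CO1 and MT-CYB were close to the threshold (limma, adjusted p = 0.0479 and 0.0488). The alternative settings were compared gene by gene for the called respiratory chain members only, so whether these 8 calls held under them was not tested. The called share of 61.5% lies beside 44.4% of all genes tested and 56.7% of genes at 10 FPKM or more, of which 31.6% were called lower. They are listed in the table although the study's methods state that mitochondrial sequences were excluded, and how that step touched their values is not stated. Their sum was 5006, 5325 and 6192 FPKM in parental and 4164, 3102 and 3266 FPKM in resistant cells, with resistant replicate 0 above the other resistant libraries. MT-CO3, a core subunit of complex IV, was measured at 1536, 1756 and 2127 FPKM in parental against 1035, 876 and 924 FPKM in resistant cells, below every parental value in each resistant library (log2 fold change -0.93 ± 0.13 (SE), adjusted p = 0.0019). MT-ND4L, a membrane subunit of complex I, stood at 497, 561 and 551 FPKM in parental against 413, 251 and 247 FPKM in resistant cells (log2 fold change -0.86 ± 0.20 (SE), adjusted p = 0.0148). The difference in direction between these genes and the nuclear subunits was not tested.

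Of 48 assembly factors, which insert cofactors and join the subunits, 17 were upregulated and 16 downregulated, with a median log2 fold change of -0.05. The called share was 68.8%, beside 44.4% of all genes tested and 56.7% of genes at 10 FPKM or more. UQCC1, a factor for the cytochrome b of complex III, stood at 8, 5.08 and 13.1 FPKM in parental against 38.5, 48.4 and 45.97 FPKM in resistant cells (log2 fold change 2.43 ± 0.33 (SE), adjusted p = 0.0015), and UQCC2, its partner, at 396, 365 and 379.6 FPKM in parental against 166, 176 and 182 FPKM in resistant cells (-1.12 ± 0.07 (SE), adjusted p = 5.46e-05). The partners thus moved in opposite directions. FOXRED1, a factor for complex I, stood at 53.6, 41.6 and 51.8 FPKM in parental against 176, 184 and 159 FPKM in resistant cells (log2 fold change 1.82 ± 0.12 (SE), adjusted p = 7.56e-05), and NDUFAF3, another, at 211, 181 and 230.3 FPKM in parental against 97.2, 109.6 and 106 FPKM in resistant cells (-0.99 ± 0.10 (SE), adjusted p = 0.000559). Neither gene overlapped between the groups.

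Of 6 genes of the chain that the symbol choice left out, C14orf2 and CYC1 were upregulated and CYCS and USMG5 downregulated. The called share of 66.7% lies beside 44.4% of all genes tested and 56.7% of genes at 10 FPKM or more. CYC1, cytochrome c1 of complex III, rose by 0.25 on the log2 scale, while CYCS, the soluble cytochrome c, stood at 206, 179 and 231 FPKM in parental against 116, 129.9 and 119.7 FPKM in resistant cells (log2 fold change -0.75 ± 0.11 (SE), adjusted p = 0.0019). C14orf2 and USMG5, both small membrane subunits of the ATP synthase, changed by 0.70 and -0.74.

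Among 9 genes for isoforms that replace a common subunit in particular tissues or conditions, 5 were high enough to be tested. NDUFA4L2, an isoform of NDUFA4 known as a target of hypoxia-inducible factor, was measured at 3.39, 8.21 and 2.89 FPKM in parental against 27.03, 20.2 and 42.6 FPKM in resistant cells (log2 fold change 2.70 ± 0.45 (SE), adjusted p = 0.00363). It was higher in every resistant library, and still far below NDUFA4. COX7B2, an isoform of COX7B, fell from 7.97, 8.13 and 7.09 FPKM to 0.724, 0.762 and 0.852 FPKM (log2 fold change -3.15 ± 0.18 (SE), adjusted p = 5.55e-05), in the same direction as COX7B. COX4I2, COX6A2 and COX7A1 were listed at 0 in every library.

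The mitochondrial ribosome, which translates the subunits encoded by mitochondrial DNA, had 14 upregulated and 36 downregulated genes of 78, with a median log2 fold change of -0.26. These were 17.9% and 46.2%, beside 22.1% called higher and 22.3% called lower among all genes tested, and 25.2% and 31.6% among genes at 10 FPKM or more. MRPL57 stood at 75, 76.5 and 71.01 FPKM in parental against 22.8, 28.5 and 23.9 FPKM in resistant cells and MRPL41 at 163, 173 and 141 FPKM in parental against 56.98, 55.1 and 50.6 FPKM in resistant cells. Both were lower in every resistant library, with log2 fold changes of -1.57 ± 0.10 (SE) and -1.55 ± 0.10 (SE) and adjusted p values of 8.39e-05 and 7.16e-05. The largest rises were those of MRPL11 (0.85) and MRPL43 (0.81).

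In the citric acid cycle and the pyruvate dehydrogenase complex, which feed NADH and succinate into the chain, 4 of 18 genes were upregulated and 4 downregulated, with a median log2 fold change of -0.14. The called share, 44.4%, was that of all genes tested and below the 56.7% of genes at 10 FPKM or more. IDH2, the NADP-dependent isocitrate dehydrogenase of the mitochondrion, was measured at 148, 139 and 145 FPKM in parental against 57.1, 64.2 and 61.4 FPKM in resistant cells (log2 fold change -1.24 ± 0.07 (SE), adjusted p = 5e-05). Succinyl-CoA ligase had its alpha subunit gene SUCLG1 at 42.2, 45.01 and 43.3 FPKM in parental against 79.98, 86.01 and 76.7 FPKM in resistant cells and its GTP-specific beta subunit gene SUCLG2 at 28.7, 29.8 and 27.04 FPKM in parental against 17.5, 19.6 and 17.9 FPKM in resistant cells. The first rose by 0.89 on the log2 scale and the second changed by -0.64. IDH3B, a subunit of the NAD-dependent isocitrate dehydrogenase, rose by 0.74. Of the same enzyme, IDH3G was downregulated (-0.60) and IDH3A was not called (-0.21).

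Of 18 regulators of mitochondrial biogenesis and mitochondrial DNA, 3 were upregulated and 5 downregulated, with a median log2 fold change of -0.08. The called share was again 44.4%, as among all genes tested. PPARGC1A, the coactivator PGC-1alpha, was low and was measured at 1.26, 5.16 and 1.22 FPKM in parental against 0.34, 0.424 and 0.391 FPKM in resistant cells. It was lower in every resistant library, and parental replicate 1 stood above the other parental libraries (log2 fold change -2.13 ± 0.58 (SE), adjusted p = 0.0253). GABPB2, a subunit of GABP, stood at 9.36, 8.9 and 12.6 FPKM in parental against 20.5, 21.4 and 22.7 FPKM in resistant cells (log2 fold change 1.08 ± 0.15 (SE), adjusted p = 0.00177). GABPB1, another subunit of GABP, stood at 20.7, 27.2 and 22.8 FPKM in parental against 20.6, 28.4 and 21.4 FPKM in resistant cells. Neither GABPB1 nor YY1 was called, with log2 fold changes of -0.01 and -0.14. POLG2, the accessory subunit of the mitochondrial DNA polymerase, changed by -1.09, and C10orf2, the gene of the mitochondrial DNA helicase, rose by 0.73.

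**Figure D4:**
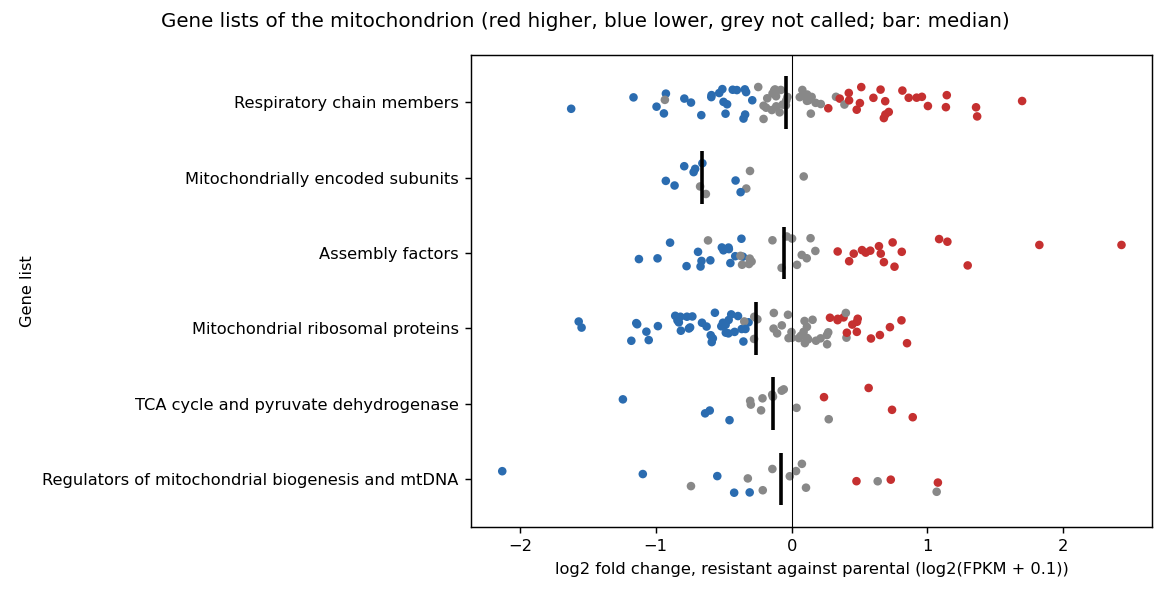
Log2 fold change on the log2(FPKM + 0.1) scale, resistant against parental libraries, of each tested gene in 6 lists, 1 point a gene, coloured by call, with a black bar for the median of the list. The medians are -0.04 for the 76 respiratory chain members, -0.66 for the mitochondrially encoded subunits, -0.05 for assembly factors, -0.26 for mitochondrial ribosomal proteins, -0.14 for the citric acid cycle and -0.08 for the regulators.

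The members lie on 22 chromosomes, and their calls by chromosome are given as a description. All 5 members on chromosome 12, namely ATP5B, ATP5G2, COX6A1, NDUFA9 and NDUFA12, were upregulated, with a median log2 fold change of 0.69. The other protein-coding genes of chromosome 12 at 10 FPKM or more also stood higher, since 47.5% of 480 were called higher and 15.2% lower, with a median of 0.32, against 25.9% and 32.2% of 8228 such genes on all chromosomes, with a median of -0.09. On chromosome 7, ATP5J2, NDUFB2 and NDUFA5 were upregulated, NDUFA4 was not called, and 44.4% of the other 383 genes were called higher and 19.1% lower. All 3 members on chromosome 16, COX4I1, NDUFB10 and UQCRC2, were downregulated, where 18.9% of the other 413 genes were called higher and 35.4% lower. On chromosome 5 the members did not follow the other genes in this way, since 2 of its 6 members were called higher and 0 lower, with a median log2 fold change of 0.15, while 14.5% of the other 365 genes were called higher and 40.8% lower, with a median of -0.24. Chromosome 19 held 10 members, of which 3 were upregulated and 3 downregulated. The part of chromosome copy number in these values was not tested.

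**Figure D5:**
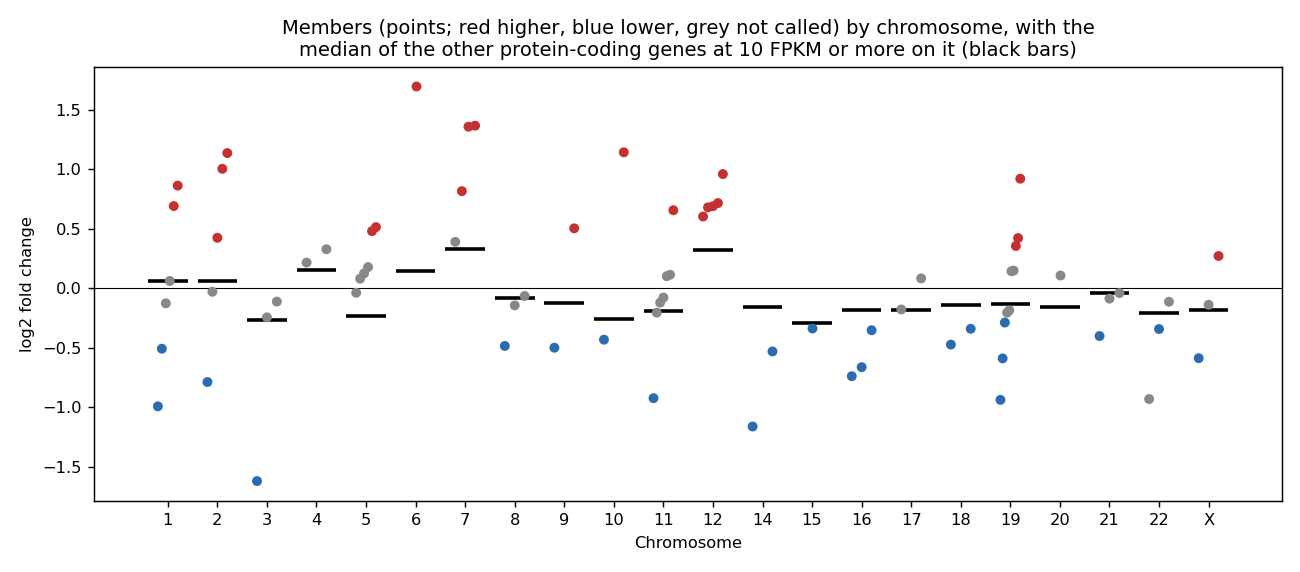
Log2 fold change of the members (points, coloured by call) by chromosome, with black bars for the median of the other protein-coding genes at 10 FPKM or more on the same chromosome. The 5 members on chromosome 12 all lie above 0, as does the median bar of that chromosome at 0.32.

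Several members have copies or neighbours with which short reads can be shared. For ATP5J2, the read-through gene ATP5J2-PTCD1 was listed at 15.9 ± 0.862 FPKM in parental cells and 19.3 ± 1.78 FPKM in resistant cells (SD, n = 3), far below ATP5J2. For NDUFC2, the read-through gene NDUFC2-KCTD14 was listed at 2.13, 32.2 and 0.0104 FPKM in parental against 12.1, 9.61 and 18.04 FPKM in resistant cells, which amounts to 4.77% of the mean NDUFC2 level in parental and 10.5% in resistant cells. Pseudogenes named after COX7A2 and NDUFB4, the genes with the largest rise and fall, were listed at less than 1% of their level in either group. How the software divided reads between such copies is not known from the table.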

How the data were processed

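The data are RNA-Seq values of C4-2B cells, 3 parental and 3 enzalutamide resistant libraries. According to the study's methods, the authors used TrimGalore 0.4.3 for trimming, STAR 2.5.3 for alignment against GRCh38 and Cufflinks 2.2.1 with GENCODE v25 for the deposited FPKM values. The submitters' processing notes in the labels name mm10, Trimmomatic and FastQC instead. The table holds human genes, so the methods were followed. The table names no unit and does not state how libraries were scaled against each other, so FPKM was taken from the methods, and differences in total RNA per cell are not visible in it. It holds no counts, so depth is unknown and no counting interval is given. No libraries held identical values.

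Of 58024 genes, 24468 reached a mean of 0.1 FPKM and entered limma (3.58.1, R 4.3.3). The scale was log2(FPKM + 0.1), and the moderated variance followed a mean-variance trend. Tests were two-sided, p values were adjusted by the Benjamini-Hochberg method over all genes tested, and 0.05 was the threshold. A fold change on this scale understates that of low genes. The fit was run on simulated data in which far fewer genes changed than were called here, so its behaviour under such broad change was not tested. The members, roles and gene lists were chosen with earlier results of these data known. Genes were named as the 3 called members with the largest rise and fall in each complex, the member of each complex with the highest mean over all libraries, all of complex II, the catalytic and c-ring genes, and the 2 called genes with the largest rise and fall in each list. Other names were added after their values were seen. Gene positions came from GENCODE v44 and promoters from RefSeq (GRCh38.p14). Alternatives covered the pseudocount, the filter, the scaling, the variance trend, a replicate block and each library left out. Tables were handled with Python 3.11.15 and pandas 2.3.3. LNCaP libraries were not analysed here. Some genes covered by the naming rule and the lists are not reported here.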

Additional observations from a re-analysis of the deposited data

How the results depend on the processing

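No call of a respiratory chain gene reversed under any of the 15 alternatives, and 35 of 45 calls held under all. The calls lost under at least 1 alternative were those of ATP5A1, ATP5C1, COX4I1, COX5A, NDUFB11, NDUFB7, NDUFS7, NDUFV2, NDUFV3 and UQCR10. Without the variance trend 14 members were downregulated instead of 22, and 21 upregulated. The medians, which lie near 0, moved with the scaling. With median ratio scaling they were 0.059 for all members, 0.19 for complex I, 0.32 for complex II, 0.49 for complex IV and 0.011 for complex V, with quantile normalisation 0.063 for all, 0.34 for complex II and 0.027 for complex V, and with totals rescaled without RMRP and RPPH1 0.037 for all, 0.17 for complex I and 0.29 for complex II. With 1 library left out, the median lay between -0.07 and 0.01 for all members, 0.013 and 0.13 for complex I (0.013 without parental replicate 1), 0.20 and 0.27 for complex II, -0.20 and -0.08 for complex III, 0.046 and 0.49 for complex IV (0.046 without parental replicate 1) and -0.17 and -0.024 for complex V. The downregulated members then numbered 15 to 21, with 15 without parental replicate 0 or resistant replicate 2, and the upregulated ones 21 to 23. Between 38.1% and 41.7% of the genes tested were called in these runs, against 44.4% with all 6 libraries. A group left with 2 libraries borrows its spread from the others in limma.

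The replicate numbers in the titles were not taken as pairs, since deviations of same-numbered libraries correlated at 0.008, 0.017 and -0.003. With the replicate number as a block, 22 members were upregulated and 15 downregulated, and 9463 genes of the table were called. The unknown depth and scaling limit what can be said of changes near 0.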

Other observations

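Single libraries stood apart for a few mitochondrial genes, which are given here as values. MT-ND6, the only subunit encoded on the light strand of mitochondrial DNA, was listed at 10.7, 12.1 and 28.8 FPKM in parental against 68.6, 4.61 and 5.79 FPKM in resistant cells, with resistant replicate 0 above all others, and MT-ATP8 at 212, 240.3 and 201 FPKM in parental against 284, 124 and 154 FPKM in resistant cells, with the same library highest. POLG, the catalytic subunit of the mitochondrial DNA polymerase, stood at 102, 48.1 and 107 FPKM in parental against 268, 177 and 102 FPKM in resistant cells, with wide spread in both groups and an adjusted p of 0.0948 (limma). COX7A2L, a factor that joins complexes III and IV, overlapped between the groups at 53.96, 45.4 and 53.8 FPKM in parental against 44.02, 54.8 and 40.5 FPKM in resistant cells. GABPA, the DNA-binding subunit of GABP, was higher in every resistant library, at 2.91, 3.16 and 4.71 FPKM in parental against 5.28, 5.54 and 5.7 FPKM in resistant cells, without passing the test (log2 fold change 0.63 ± 0.21 (SE), adjusted p = 0.0528). NRF1 was upregulated, at 14.5, 11.4 and 15.8 FPKM in parental against 18.9, 18.2 and 20.6 FPKM in resistant cells (log2 fold change 0.48 ± 0.14 (SE), adjusted p = 0.035), and TFAM, which packages mitochondrial DNA, had a log2 fold change of -0.21 ± 0.10 (SE) (adjusted p = 0.123). These genes were picked after their values were seen.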
